A study of Rattus norvegicus with 3 samples.

Results

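The genes described here carry out the breakdown of fatty acids in mitochondria and peroxisomes, together with a set of peroxisome membrane and import factors, in the rat medullary thick ascending limb (mTAL). The list holds 39 genes. A gene was taken as measured when at least 1 probe set of the array was annotated to it and to no other gene, and the brightest such probe set, by mean log2 signal, represented the gene. That rule found 51 probe sets for 38 of the 39 genes, out of 14217 genes measured on the arrays. Acaa1a, a peroxisomal thiolase gene, had only a probe set annotated to Acaa1b as well and is left out of all counts.

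The mTAL reabsorbs sodium chloride in the outer medulla and runs on oxidative metabolism. The study profiled it on 3 Affymetrix arrays, 1 for each RNA sample, and had no second group. The rats were male Sprague-Dawley animals aged 7 to 8 weeks, all injected into the peritoneum 30 minutes before death with furosemide (1 mg), a loop diuretic, and heparin (250 u). Tubules were freed from the outer medulla with collagenase and hyaluronidase and separated on 33.3% Percoll. For all 3 samples the labels give a perfusion of 10 ml, a digestion of 60 minutes, and 95% oxygen with 5% CO2. The labels give no transgene, knockout or diet, and they do not say whether a sample was 1 rat or a pool. How much of the spread between samples is technical and how much lies between rats is therefore not known.

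Long-chain fatty acids enter a cell with the help of membrane proteins, are held by binding proteins and are joined to coenzyme A by acyl-CoA synthetases. Carnitine acyltransferases then carry the acyl group into the mitochondrion, where 4 repeated steps shorten it, and the electrons released pass through the electron transfer flavoprotein to the respiratory chain. Peroxisomes shorten very long, branched and dicarboxylic chains with enzymes of their own, and peroxins build the organelle and import its proteins. In the kidney this pathway is best known from the proximal tubule, and other segments with many mitochondria use it too.

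Promoter sequences of RefSeq (build GRCr8) were at hand for 34 of the 38 measured genes, each as 250 bases before to 50 bases after the annotated start. A pair of these genes shares its promoter. Hadha and Hadhb, which encode the subunits of the mitochondrial trifunctional protein, are read in opposite directions from start sites 301 bases apart, and their windows have 200 bases in common. The shared stretch (chr6:31907551-31907750, plus strand) is shown because 1 sequence serves both genes, read towards Hadha, with the GC box (GGGCGG, searched on both strands) in capitals.
Hadha and Hadhb: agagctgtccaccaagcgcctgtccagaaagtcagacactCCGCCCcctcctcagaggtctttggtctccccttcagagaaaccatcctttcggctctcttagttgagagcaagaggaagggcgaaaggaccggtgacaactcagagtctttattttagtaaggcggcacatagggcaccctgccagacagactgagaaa

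The GC box stood in 22 of the 34 windows, or 64.7%. It stood in 33.1% of all 33469 promoters of that length, in 55.7% of those of genes on the array and in 64.7% of those of detected genes. That share equalled the share of detected genes at large. Of the genes with a GC box, Etfb, a subunit of the electron transfer flavoprotein, is shown (chr1:102988339-102988478, plus strand) because its promoter holds a match on each strand, in capitals.
Etfb: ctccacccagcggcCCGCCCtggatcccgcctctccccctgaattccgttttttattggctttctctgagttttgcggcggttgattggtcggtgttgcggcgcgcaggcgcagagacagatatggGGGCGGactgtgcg

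The element of the estrogen-related receptors (TNAAGGTCA, both strands) was found in 0 of the 34 windows. It stood in 1.20% of all promoters and in 0.660% of those of detected genes. These receptors are known to act on genes of this pathway. A match is a description of the letters, and their absence from this short window says nothing about binding.

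Signals are given per probe set as linear intensities. The arrays had nearly the same trimmed mean (1000.4, 1000.3 and 1000.3 for replicates 1, 2 and 3, with the lowest and highest 2% left out). A gene was called detected when its log2 signal exceeded a cutoff in a limma test over all genes (one-sided, Benjamini-Hochberg adjusted p under 0.05). As cutoff served the 95th percentile of the signals of 75 genes typical of other tissues, which came to 505, 398 and 433 on the 3 arrays. It fell between Lhb (444, 302 and 361) and Mbp (682, 756 and 659), so it rests on few genes. All 14 markers of the thick ascending limb were detected, with uromodulin (Umod, 57036 ± 8031, SD, n = 3), Egf (45193 ± 905) and the sodium-potassium-chloride cotransporter gene Slc12a1 (39427 ± 2562) highest. Markers of the proximal tubule outside this pathway were called for 1 of 21 genes, but the mean of 11 exceeded the mean cutoff, and all 21 were higher on replicate 3 than on replicate 1. In bulk samples fewer cells of a type and less RNA per cell cannot be told apart. The order of signals among genes is no order of transcript abundance, because each probe set binds its target with its own strength. With 3 arrays, the precision of all values is limited by their number.

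Of the 38 measured genes, 36 (94.7%) were detected, compared with 50.4% of all genes. Of the 36, 22 lay more than 3 log2 units above the cutoff, and 37 of the 38 exceeded it on every array. These further counts were not taken over all genes, so they describe the list alone. The mean log2 signal exceeded the mean cutoff for 37 of the 38, compared with 8104 of all 14217 genes. The median of the list was 2.79 ± 0.16 log2 units (SD, n = 3) above the median gene, with 2.97, 2.66 and 2.74 on replicates 1, 2 and 3. The genes not detected were Acot1 and Pex11a. By unadjusted p under 0.05 the count was 36 as well, compared with 7383 of all 14217 genes. Since the list was put together with results from these arrays known, its share is given as a description.

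**Figure D1:**
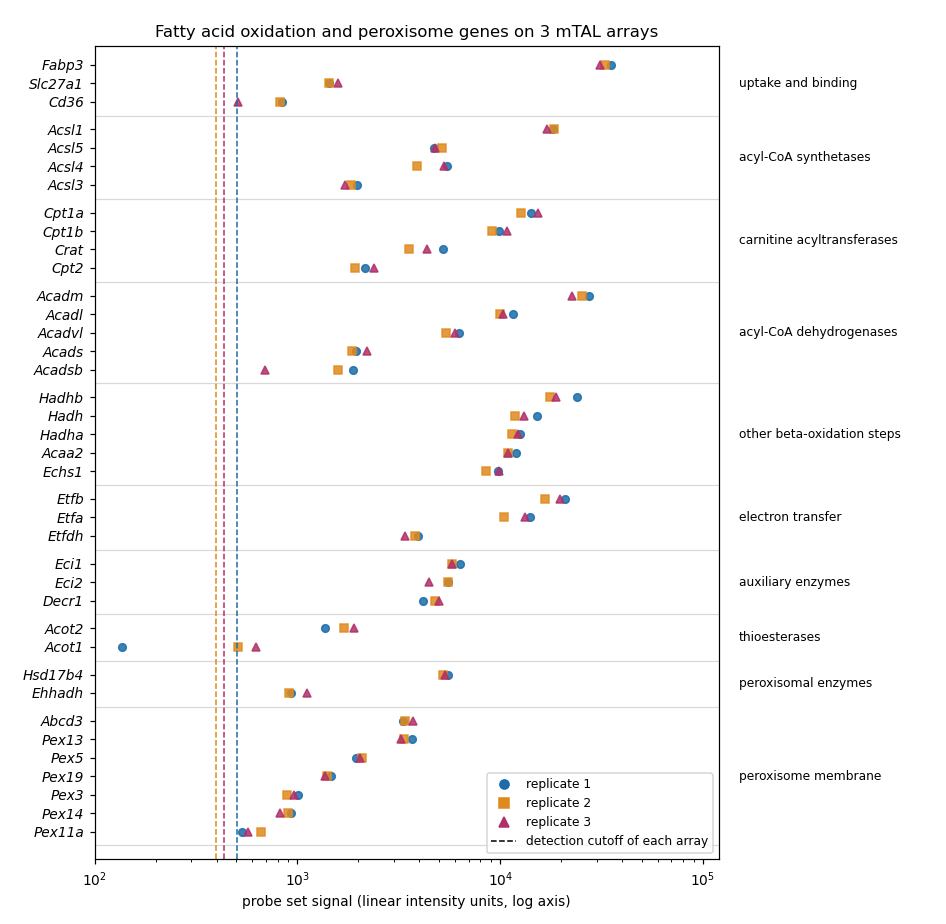
Signal of each of the 38 measured genes on the 3 arrays (log axis, linear intensity units), grouped by role, with the detection cutoff of each array as a dashed line of its colour. Most genes show 3 close points far to the right of the cutoffs, Pex11a lies just past them, and Acot1 (137, 509 and 626) and Acadsb (1891, 1595 and 690) have 1 array set apart.

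All 3 measured genes of fatty acid uptake and binding were detected. Fabp3, the heart-type fatty acid binding protein, which carries fatty acids through the cytosol, had signals of 35040, 32768 and 31244 on replicates 1, 2 and 3. Its mean of 33017 ± 1910 (SD, n = 3) was 6.22 log2 units above the cutoff (SE 0.14, limma adjusted p = 0.000128), and the arrays lay close together. Slc27a1, a fatty acid transport protein of the plasma membrane, had signals of 1438, 1440 and 1583, 1.75 above the cutoff (adjusted p = 0.000727).

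Cd36, the fatty acid translocase, had signals of 842, 824 and 508. It was low on replicate 3 and only 0.67 log2 units above the cutoff (SE 0.21, adjusted p = 0.0377). Cd36 is also an endothelial gene. Of 11 endothelial markers 6 were detected, and their summed signal was 16629, 28555 and 26024, lowest on replicate 1, where Cd36 was not low. The part of other cells in the Cd36 signal was not tested. The signal exceeded the cutoff on all 3 arrays. The call was lost without replicate 1 (0.64 log2 units above the cutoff, adjusted p = 0.122) and without replicate 2 (0.48, adjusted p = 0.137), and held without replicate 3 (0.89, adjusted p = 0.0368). The only probe set of Cd36 alone is of a type that can match several transcripts.

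The 4 acyl-CoA synthetases, which activate fatty acids, were all detected. Acsl1, the form known from fat, liver and heart, had signals of 18241, 18466 and 17107 (5.34 log2 units above the cutoff, SE 0.15, adjusted p = 0.000128). Acsl5 had 4738, 5139 and 4757, and the SD of its log2 signal over the arrays, without centring, was 0.07, against 0.06 for Acsl1. Acsl4, which prefers arachidonic acid, was lower on replicate 2, with 5444, 3878 and 5309. Acsl3, which sits on lipid droplets and the endoplasmic reticulum, had 1963, 1838 and 1709 and stood 2.05 above the cutoff (adjusted p = 0.000361).

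The carnitine acyltransferases were detected in both forms of the entry enzyme. Cpt1a, the liver form of the outer membrane palmitoyltransferase that controls entry of long chains, had signals of 14277, 12660 and 15372, with a mean 4.99 log2 units above the cutoff (SE 0.14, adjusted p = 0.000128). Cpt1b, known as the muscle form, had 9908, 9137 and 10810, 4.49 above it (SE 0.15, adjusted p = 0.000128). For both genes replicate 2 was lowest and replicate 3 highest, and after centring of the arrays on their median gene the difference of replicates 3 and 1 was -0.01 log2 units for Cpt1a and 0.01 for Cpt1b. The 2 genes rest on different probe sets, so their signals do not show which form prevails. Cpt2, the inner membrane enzyme that returns the acyl group to coenzyme A, had 2162, 1914 and 2374 (adjusted p = 0.000322). Crat, which acts on short acyl groups in mitochondria and peroxisomes, had 5236, 3565 and 4370 and was lowest on replicate 2.

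The acyl-CoA dehydrogenases, which take the first step of each round for chains of different length, were detected for 5 of 5 genes. Acadm, the medium-chain enzyme, had signals of 27510, 25451 and 22605 (5.82 log2 units above the cutoff, SE 0.14, adjusted p = 0.000128). Acadl, for long chains, had 11570, 9956 and 10360, and Acadvl, the very-long-chain enzyme of the inner membrane, had 6282, 5386 and 5971. Acads, for short chains, had 1937, 1850 and 2212 and stood 2.17 above the cutoff (adjusted p = 0.000410). In these 4 genes the SD of the log2 signal without centring was 0.11 to 0.14.

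Acadsb, the short/branched-chain dehydrogenase of isoleucine breakdown, had signals of 1891, 1595 and 690. Replicate 3 was set apart from the others, 1.57 log2 units below replicate 1 after centring. Its mean was 1.53 above the cutoff (SE 0.33, adjusted p = 0.0126), and the call was lost without replicate 1 (1.34 above the cutoff, adjusted p = 0.0655) and without replicate 2 (1.29, adjusted p = 0.0585). The 3′ to 5′ log2 ratio of the Actb control probe sets, which rises as RNA breaks down, came to 1.48, 1.18 and 1.95. That of the Gapdh control probe sets came to 0.51, 0.43 and 0.60 and differed less between arrays. Both were highest on the array where Acadsb was low. The part of RNA breakdown in the Acadsb value was not tested.

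The enzymes of the later steps had high signals on every array. Hadha and Hadhb, the trifunctional protein subunits whose shared promoter is shown above, had 12460, 11409 and 12228 and, for Hadhb, 23987, 17628 and 18895. Both were lowest on replicate 2 and highest on replicate 1. The difference of replicates 2 and 1 after centring was -0.22 log2 units for Hadha and -0.53 for Hadhb. Hadh, the hydroxyacyl-CoA dehydrogenase of medium and short chains, had 15131, 11848 and 13132. Acaa2, the mitochondrial thiolase that releases acetyl-CoA, had 12016, 10947 and 10905. Echs1, the short-chain enoyl-CoA hydratase, had 9810, 8521 and 9841. The means of these 5 genes were 4.40 to 5.50 log2 units above the cutoff (limma adjusted p = 0.000128 for each).

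The electron transfer flavoprotein subunits and their oxidoreductase were all detected. Etfa had signals of 13975, 10458 and 13226 and Etfb had 20995, 16586 and 19792, so that both were lowest on replicate 2, with centred differences from replicate 1 of -0.51 and -0.43 log2 units. These subunits form 1 protein that collects electrons from the dehydrogenases. Etfdh, which hands the electrons to ubiquinone, had 3948, 3824 and 3401 and was lowest on replicate 3. It stood 3.07 above the cutoff (SE 0.14, adjusted p = 0.000172).

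The auxiliary enzymes, which handle double bonds of unsaturated fatty acids, were detected for 3 of 3 genes. Eci1 and Eci2, the enoyl-CoA isomerases, had signals of 6321, 5814 and 5811 and, for Eci2, 5557, 5503 and 4476. Decr1, the mitochondrial dienoyl-CoA reductase, had 4188, 4756 and 4990, with replicate 1 lowest. It was one of 9 genes of the 38 that were higher on replicate 3 than on replicate 1 (38.8% of all genes were).

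The acyl-CoA thioesterases, which cut acyl-CoA back to the free fatty acid, differed from each other across arrays. Acot1, the cytosolic form, had signals of 137, 509 and 626, below the cutoff on replicate 1 and above it on the other arrays. Because replicate 1 was not above its cutoff, only a bound can be set on the differences: replicate 3 was at least 0.19 log2 units higher after centring, with replicate 1 put at its cutoff, and no bound above 0 was had for replicate 2. The mean was -0.33 relative to the cutoff (SE 0.58, adjusted p = 1.00). Without replicate 1 the mean was 0.44 above the cutoff (adjusted p = 0.0680). Acot2, the mitochondrial form, had 1369, 1700 and 1908, and was detected 1.89 above the cutoff (SE 0.21, adjusted p = 0.00143). Replicate 3 was highest in this probe set and lowest in a further one of Acot2 (1106, 1094 and 1006), so the direction of its difference is not settled. Acot1 and Acot2 are closely similar neighbours, and a probe set annotated to both had 373, 423 and 327, so the signals of the pair are uncertain.

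The measured peroxisomal enzymes were both detected. Hsd17b4, the multifunctional protein of the hydratase and dehydrogenase steps for branched and very long chains, had signals of 5544, 5212 and 5346. The SD of its log2 signal without centring, 0.04, was the lowest of the 38 genes. Ehhadh, the multifunctional enzyme known from dicarboxylic acid breakdown and from liver and proximal tubule, had 931, 909 and 1113. It stood 1.15 log2 units above the cutoff (SE 0.16, adjusted p = 0.00320), with replicate 3 at 0.14 above replicate 1 after centring. The part of proximal tubule RNA in the Ehhadh signals was not tested.

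The peroxisome membrane and import genes were detected for 6 of 7. Abcd3, the transporter that brings acyl groups into the peroxisome, had signals of 3328, 3387 and 3734 (2.97 log2 units above the cutoff, adjusted p = 0.000206). The docking factor genes Pex13 and Pex14 had 3690, 3343 and 3251 and, for Pex14, 935, 900 and 823. Pex5, the receptor for the main peroxisomal targeting signal, had 1938, 2088 and 2034. Pex19 and Pex3, which insert membrane proteins, had 1460, 1399 and 1370 and, for Pex3, 1003, 887 and 957. Pex14 was the lowest detected gene of this group, 1.00 above the cutoff (SE 0.14, adjusted p = 0.00324). Pex11a, a factor of peroxisome division that is inducible in liver, had 532, 659 and 572. These signals lay above the cutoff on all 3 arrays, but by 0.40 log2 units only (SE 0.19, adjusted p = 0.0966), so the gene was not called.

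Most of the genes differed little between the 3 arrays. After centring on the median gene, 2 of 38 (Acot1 and Acadsb) had a log2 SD over 0.5, against 28.1% of all genes. Low signals vary more, and among genes with a mean above the mean cutoff the counts were 1 of 37 and 5.03% of all. Replicates 3 and 1 were more than 1 log2 unit apart for 2 of the 38 genes (17.7% of all genes), with Acot1 higher on replicate 3 (9.81% of all genes were) and Acadsb lower (7.91%). The Acot1 count uses its replicate 1 signal as measured, under the cutoff. Among genes with a mean above the mean cutoff it was 1 of 37, compared with 2.88% of all such genes, so the list was near the background there. Replicates 2 and 1 were that far apart for Acot1 alone (17.7% of all genes), and replicates 3 and 2 for Acadsb alone (15.7%).

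A shift common to many of the genes was seen between arrays, but it was small. After centring, replicate 1 was the highest array for 26 of 38 genes (46.0% of all genes) and replicate 2 the lowest for 19 (37.2%). The median difference of replicate 3 and replicate 1 was -0.19 log2 units over the list and -0.11 over all genes, and that of replicate 2 and replicate 1 was -0.19 and -0.10. Without centring the first of these was -0.076 over the list. These differences have 1 array on each side and no test. The thick ascending limb markers had medians of -0.26 and -0.22 for the same differences.

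Proximal tubule markers did not keep to this range, and most other marker lists did not either. The median difference of replicates 3 and 1, with signals as measured, was 4.52 for proximal tubule markers. It was 1.45 for principal cell, 1.10 for intercalated cell, 1.20 for fibroblast and mural cell and 1.31 for red blood cell markers. For thin limb, endothelium, leukocyte and adipocyte markers it was 0.70, 0.75, 0.40 and -0.14. Of 21 proximal tubule markers with no fatty acid or peroxisome gene among them, 20 were under the cutoff on replicate 1. On replicate 3, 13 of these were above it. With replicate 1 put at its cutoff, 10 of the 13 were more than 1 log2 unit higher on replicate 3. The summed signal of the 21 markers was 3464, 22432 and 82474, whereas that of the 38 pathway genes was 297735, 264156 and 275409. Kap (169, 7164 and 26093), a rat and mouse proximal tubule gene, was at least 47.6-fold higher on replicate 3 than on replicate 1. The transporter genes Slc7a13 (124, 3301 and 13569) and Slc22a12 (6.77, 195 and 1630) were at least 24.8-fold and 2.97-fold higher. No marker was at 0, and the 1 called was Ggt1 (1150, 2247 and 6005). Of the 38 pathway genes, only Acot1 was under the cutoff on replicate 1, and it was above the cutoff on replicate 3. The other genes were above it on replicate 1 already, so this count could not include them. The part of proximal tubule RNA in the Acot1 values was not tested. After centring, 9 of the 38 genes were higher on replicate 3 than on replicate 1, compared with 38.8% of all genes. Whether proximal tubule RNA adds to the signals of the 38 genes was not tested.

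**Figure D2:**
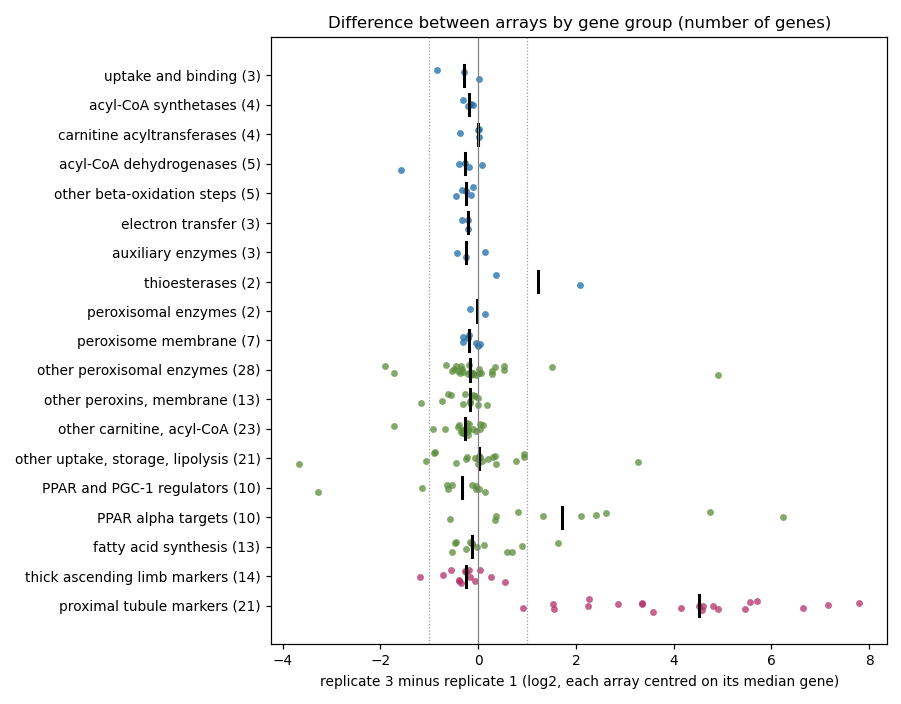
Difference of replicate 3 and replicate 1 in log2 units, each array centred on its median gene, with 1 point per gene, the group median as a black bar and dotted lines at 1 log2 unit either way. Blue groups are the 38 genes by role, green groups other lipid genes and red groups markers. All blue points except those of Acot1 and Acadsb lie within the dotted lines, and the proximal tubule markers lie between 0.91 and 7.79. Signals under the cutoff, such as those of Acot1 and of 20 proximal tubule markers on replicate 1, are plotted as measured.

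Genes with more than 1 probe set allowed a check within the gene. For 10 of the 38 genes there were 13 further probe sets. Of these, 4 exceeded the cutoff on every array and 7 on none. As for Acot2 above, Cpt1a, Acsl1 and Acsl5 had a further probe set above the cutoff on every array. The second probe set of Acsl1 had signals of 8303, 9736 and 7605, and that of Acsl5 had 1353, 1507 and 1354. For both genes replicate 2 was the highest array in either probe set. The second probe set of Cpt1a did not, with 4694, 4636 and 2636, so that replicate 3 was lowest there and highest in the probe set in use. The direction of the Cpt1a difference between arrays is therefore not settled.

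The other further probe sets were low. Hadh had one at 14.8, 7.16 and 36.5 beside its 15131, 11848 and 13132. For Hadha the further ones had means of 357 and 57.3, for Acaa2 282, for Pex5 171 and for Pex11a 148. Eci1 had one at 243, 122 and 12.8, while the probe set in use is of a type that can match several transcripts. With the mean of all probe sets, Hadh and Eci1 were no longer called (adjusted p = 0.0603 and 0.0785). With probe sets of the shared types left out, Eci1 fell to -2.61 log2 units relative to the cutoff, so its detection depends on 1 probe set.

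**Figure D3:**
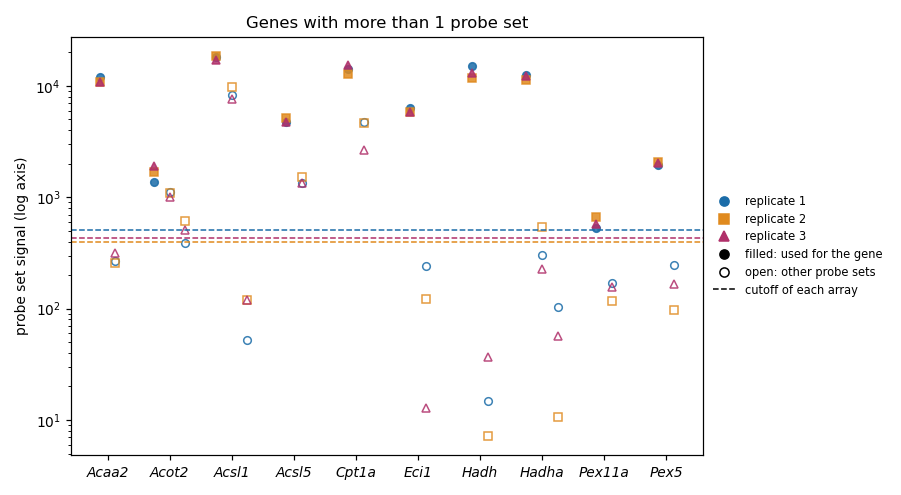
Signals (log axis) of all probe sets of the 10 genes with more than 1, by array, with filled symbols for the probe set in use and open symbols for the rest. Dashed lines are the cutoffs. At least 1 further probe set lies above the cutoffs on all arrays for Acot2, Acsl1, Acsl5 and Cpt1a and the further probe sets of the rest lie near or under them, down to 7.16 for Hadh.

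Other genes of the pathway came from lists drawn up by function, and as with the 38 genes their shares are read beside 50.4% of all genes. Of 23 further carnitine and mitochondrial acyl-CoA genes 21 were detected. The highest were the branched-chain enzymes Hibadh (27559 ± 2076) and Hsd17b10 (17028 ± 626) and the thiolase Acat1 (24498 ± 1501), each with an adjusted p of 0.000128. The carnitine transporter Slc22a5 had 4221, 4391 and 4716, and the carrier Slc25a20, which moves acylcarnitine across the inner membrane, 2611, 2513 and 2281. These 2 were named after their values were seen. Not detected were Bbox1 (47.1 ± 14.1), which makes carnitine, and Cpt1c (34.9 ± 18.7), a brain form of Cpt1. Among genes of this list whose mean exceeded the mean cutoff, a limit that holds for the largest differences named in the lists that follow too, Acot13 and Mcee differed most between replicates 3 and 1, by -0.68 and -0.42.

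Of 28 further peroxisomal enzymes 20 were detected. The highest were the peroxiredoxin gene Prdx5 (30782 ± 834), the phytanoyl-CoA hydroxylase gene Phyh (29304 ± 5576) and the sterol carrier gene Scp2 (23318 ± 695). Acot4 (30.4 ± 22.2) and Agps (29.4 ± 5.67) were lowest. Hao2, a hydroxyacid oxidase that is also a proximal tubule gene, had 3934, 7095 and 12142 and a difference of 1.51, and Gnpat, of ether lipid synthesis, one of -0.54. Of 13 further peroxins and membrane genes 8 were detected, with Acbd5 (6061 ± 501), Slc25a17 (5032 ± 192) and Pxmp2 (2492 ± 151) highest and Pex11g (308 ± 7.37) and Abcd2 (54.5 ± 24.2) lowest. Among those above the mean cutoff, the largest differences were -0.55 for Pxmp4 and -0.31 for Pex2.

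Of 21 further genes of uptake, storage and lipolysis 12 were detected, led by the acyl-CoA binding protein gene Dbi (34394 ± 2287), the lipid droplet gene Plin3 (7873 ± 983) and the monoglyceride lipase gene Mgll (6538 ± 323). Fabp7 (26 ± 24.5) and Fabp1 (10.4 ± 5.53), the brain and liver binding proteins, were lowest. The lipoprotein lipase gene Lpl had 6366, 484 and 547, high on replicate 1 alone (difference -3.66). Its signals were above the cutoff on all 3 arrays, with a mean 1.43 log2 units above it. With their large spread the gene was not called (SE 0.82, limma adjusted p = 0.153). Adipocyte markers were detected for 1 of 7 genes, Cidea (1605, 868 and 1578). Their summed signal was 2022, 1348 and 2077, and no marker was at 0. Of the 7, 6 were under the cutoff on both replicate 1 and replicate 3. Among them, Adipoq (96.1, 156 and 130) and Plin1 (98.7, 87.3 and 19.1) were under it on every array. The part of adipocyte RNA in the Lpl signals was not tested. Slc27a2, a very-long-chain synthetase known from proximal tubule, had 145, 446 and 1513, at least 2.76-fold higher on replicate 3 than on replicate 1 (not detected, adjusted p = 0.831).

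The regulators were detected for 7 of 10 genes. Esrrg (17330 ± 2740) and Esrra (3687 ± 750), estrogen-related receptors, and their coactivator Ppargc1a (10042 ± 603) were highest. Ppara (85.7 ± 62.2), the receptor best known for this pathway in liver, and its partner Rxra (60.6 ± 57.3) were lowest and not detected (adjusted p = 1.00 for each), although a low signal may be that of a poor probe set. Acacb, whose product makes the inhibitor of Cpt1, and Esrra differed most between replicates 3 and 1 among regulators above the mean cutoff, by -0.61 and -0.53. The regulator count was 4 without replicate 3, where 45.7% of all genes were called.

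Of 10 measured targets of PPAR alpha outside the pathway, 3 were detected, namely Pdk4 (6982 ± 2146), which shuts off pyruvate oxidation, Angptl4 (5991 ± 4527), an inhibitor of lipoprotein lipase, and Ucp2 (1286 ± 221). Without replicate 1 the count was 5. Angptl4 had signals of 2381, 4523 and 11071 and Pdk4 had 4583, 7646 and 8718, lowest on replicate 1 for both. Cyp4a8 and Cyp4a3, fatty acid hydroxylases known from proximal tubule, had 65.0, 1060 and 5304 and, for Cyp4a3, 249, 942 and 1652. Replicate 1 was not above its cutoff for either, and replicate 3 was at least 9.68-fold and 3.01-fold higher. Fgf21 (60.2 ± 44.4) and Creb3l3 (98.1 ± 106) were lowest. The summed signal of the 10 genes was 8692, 16476 and 29342, in the same order as that of proximal tubule markers. Principal cell, intercalated cell, fibroblast and mural cell, and red blood cell markers had that order too. Thin limb, endothelium, leukocyte and adipocyte markers did not. The part of these cells in the 10 genes was not tested.

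Genes of fatty acid synthesis, the opposite process, were detected for 9 of 13. Scd2 (6302 ± 1724), Elovl1 (4926 ± 257) and Elovl6 (3968 ± 555), of desaturation and elongation, were highest, and Fads2 (209 ± 49.5) and Scd (53.7 ± 36.9) lowest. Fasn, the fatty acid synthase gene, had 3898, 2622 and 2912, a difference of -0.54. Me1 (460, 744 and 929), which was under the cutoff on replicate 1, was at least 0.76 log2 units higher on replicate 3, the largest difference among synthesis genes above the mean cutoff.

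**Figure D4:**
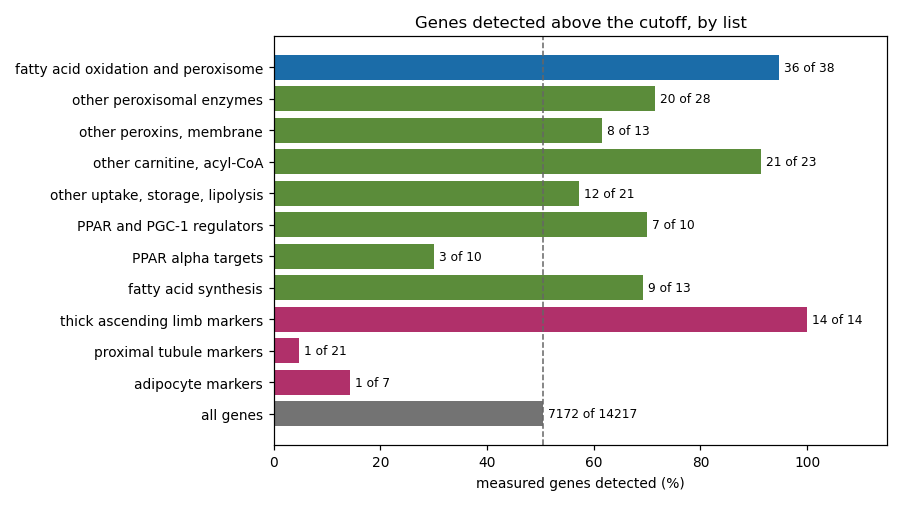
Percentage of measured genes called detected (limma adjusted p under 0.05) in each list, with the counts beside the bars and the share of all genes as a dashed line. The 38 fatty acid oxidation and peroxisome genes (36 detected) and the carnitine and acyl-CoA list (21 of 23) are far above the line, while the PPAR alpha targets (3 of 10), proximal tubule markers (1 of 21) and adipocyte markers (1 of 7) are below it.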

How the data were processed

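Total RNA of 3 mTAL samples, 1 group, was labelled as biotinylated cRNA and put on Affymetrix arrays, as the labels' protocols say. Per the labels, 1 array was run for each sample. The authors deposited 1 intensity per probe set and array; the summary method, software and normalization are not given in the sources used here. Any background correction in that step would act most on low signals. The table held 31099 probe sets, 57 of them controls. Platform annotation gave 1 gene to 20826, several to 436 and none to 9780; RefSeq (GRCr8) held 20758 of those gene identifiers and changed 0 symbols. Log2 was taken without a pseudocount. Of 83 other-tissue genes listed for the cutoff (95th percentile), 75 were measured. Myh1 was left out because its annotation was in question in earlier results, so this choice was made with them known. With Myh1 the cutoffs were higher, at 748, 831 and 762 on replicates 1, 2 and 3. Detection was tested with limma 3.58.1 in R 4.3.3 (lmFit, eBayes, one-sided) over 14217 genes, on code tested on simulated data. Differences between arrays were centred on the median gene and not tested; where the dimmer signal was under its array's cutoff, a bound was set with that signal put at the cutoff. The genes and lists were chosen with earlier results of these data known. Named genes were the 38; of each pathway list the 3 highest detected, the 2 lowest, and the 2 with the largest difference of replicates 3 and 1 among genes above the mean cutoff; and marker genes by a like rule. Alternatives covered normalization, pseudocount, probe set, cutoff, centring and leaving out each replicate.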

Additional observations from a re-analysis of the deposited data

Results flagged for a closer look

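Probe sets annotated to one of the 39 genes and to a second gene belong to no comparison above. Of 6 such probe sets, 5 were above the cutoff on every array, which is why they are given here. The probe set of Acaa1b and Acaa1a, the peroxisomal thiolases, had signals of 3043, 2654 and 2878 on replicates 1, 2 and 3 (mean 2858). It is the only reading of Acaa1a on these arrays, and the share of each gene in it cannot be told apart. The probe set of Eci3 and Eci2 had a mean of 2079 ± 283 (SD, n = 3). That of Cd36l1 and Cd36 had 2413, 1732 and 2661 (mean 2269), and there replicate 3 was the highest array, whereas Cd36's own probe set was lowest on replicate 3. A pair of probe sets annotated to LOC102548286 and Pex19 had means of 3103 ± 210 and 1192 ± 294.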

How the results depend on the processing

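Of 493 values of single genes under the alternatives, 463 kept their direction and call, 12 kept the direction and lost the call, 3 gained a call and 15 changed sign. The 463 include the values with the 75th percentile of every array set equal. Those could not change, because the cutoff moves with the signals of its array. The number of detected genes was 28 of 38 when the 99th percentile set the cutoff (26.8% of all genes), 31 with Myh1 among the other-tissue genes (39.9%), 37 without Odf2 (54.0%; a choice made after seeing the data, since this gene is also known from centrioles), 38 at the 90th percentile (61.9%) and at the highest TrpnX control (78.3%), 34 with the mean of all probe sets, 34 of 37 without shared-type probe sets (Cd36 has no other), 36 under the scaling and pseudocount alternatives, and 34 to 36 without single replicates. With the 99th percentile, 7 genes fell under the cutoff beside Acot1 (-2.0): Acadsb (-0.15), Ehhadh (-0.53), Cd36 (-1.0), Pex3 (-0.58), Pex11a (-1.27), Pex14 (-0.68) and Pex19 (-0.0044). With Myh1, Cd36 (-0.14) and Pex11a (-0.41) did, beside Acot1 (-1.15). Acadsb, Ehhadh, Pex3 and Pex14 stayed above that cutoff but lost the call (limma adjusted p = 0.137, 0.0984, 0.118 and 0.233). Acot1 was above it at the 90th percentile (0.89), at TrpnX (2.80), without Odf2 (0.050), with the mean of all probe sets (0.34), and ran from -0.76 to 0.44 without single replicates, above it without replicate 1. Eci1 was at -2.61 without shared-type probe sets. The list level was 2.50 with the mean of all probe sets, and 1 gene was over 1 log2 unit apart between replicates 3 and 1 among genes above the mean cutoff. At the 99th percentile, detected genes numbered 12 of 28 other peroxisomal enzymes, 4 of 13 other peroxins, 3 of 10 regulators and 1 of 10 PPAR alpha targets, the last 3 near or under the 26.8% of all genes; regulators numbered 4 with Myh1 and 4 to 6 without single replicates; PPAR alpha targets 6 at the 90th percentile, 7 at TrpnX and 3 to 5 without single replicates. The causes were not tested. No paired analysis was possible because there is 1 group. Signals near the cutoff limit Cd36, Pex11a and Acot1 most, and the calls of Acadsb, Ehhadh, Pex3 and Pex14 depend on the cutoff too.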
